A study of Homo sapiens with 12 samples.

Results

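The genes described here encode the core of the machine that copies DNA. They are the catalytic and second subunits of DNA polymerase alpha (POLA1, POLA2) with the small primase subunit PRIM1, the catalytic subunits of polymerases delta (POLD1) and epsilon (POLE), the second epsilon subunit POLE2, the sliding clamp PCNA, the helicase component CDC45 and the GINS subunits GINS1 and GINS2. They were chosen by symbol, and all 10 were found among the 23710 genes counted in each library.

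RCC4, an established human clear cell renal carcinoma line, was transfected with 40 pmol of siRNA and collected after 72 hours. Both siRNAs target MESH1, listed in the counts as HDDC3, a metazoan relative of bacterial SpoT that hydrolyses ppGpp and dephosphorylates NADPH. The siRNA siMESH1-CDS was compared with 3 non-targeting (siNT) libraries in experiment 1, and siMESH1-7002 with 3 other siNT libraries in experiment 2, so that the 12 libraries form 4 groups of 3. The labels name no agent besides the siRNA and the transfection reagent, and all libraries come from 1 line.

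A replication origin is opened by the CMG helicase, in which CDC45 and the GINS complex activate the MCM ring. Polymerase alpha-primase then lays down short RNA-DNA primers, polymerase epsilon extends the leading strand and polymerase delta the lagging strand, and PCNA holds the polymerases on the template. Transcription of many of these genes is periodic in the cell cycle and is known to depend on E2F factors. In bulk RNA, fewer cells in S phase and less mRNA per cell cannot be told apart.

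The siRNA sequences are shown because the knockdown rests on them. They are the target strands given with the samples, and capitals mark the bases that pair with guide positions 2 to 8 (the seed).
siMESH1-CDS: gggaaucacugACAUUGUg
siMESH1-7002: ctgaaggtctcctGCTAACTa
The seeds differ. The siMESH1-7002 target was found whole in the 3′ untranslated region (3′UTR) of the HDDC3 transcript used here and the siMESH1-CDS target was not. A match to the siMESH1-CDS seed occurred in the 3′UTR of 1 of the 10 genes (GINS1) and in 16.4% of the 12832 tested genes with a 3′UTR. A match to the siMESH1-7002 seed occurred in the same gene and no other of the 10, and in 6.21% of the 12832.

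HDDC3 fell with both siRNAs. Levels are read counts scaled by library size and TMM factors (CPM). HDDC3 was at 8.23, 6.46 and 7.75 in the siNT libraries of experiment 1 and at 0.158, 0 and 0.316 with siMESH1-CDS. It was at 13.9, 13.1 and 12.7 with siNT and at 1.25, 1.18 and 1.72 with siMESH1-7002. No siMESH1 library reached any siNT library of its experiment, and the log2 fold change was -5.56 ± 0.82 (SE, edgeR adjusted p = 0.00174) with siMESH1-CDS and -3.25 ± 0.13 (adjusted p = 2.51e-12) with siMESH1-7002. After a correction for transcript GC content, described below, it was -3.68 ± 0.44 with siMESH1-CDS (edgeR adjusted p = 0.000659) and -3.12 ± 0.12 with siMESH1-7002 (adjusted p = 5.60e-15). The values with siMESH1-CDS rest on 5, 0 and 11 reads.

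The libraries held 34063155 to 49134129 reads in genes in experiment 1 and 24787804 to 31651125 in experiment 2. The experiments differed in precision, with a biological coefficient of variation of 0.299 in experiment 1 and 0.0490 in experiment 2. In experiment 1 the change of a gene followed the GC content of its transcript. The median log2 fold change with siMESH1-CDS ran from 1.11 in the lowest of 10 equal classes of GC content to -3.68 in the highest. With siMESH1-7002 it ran from 0.14 to -0.09. The 3 siMESH1-CDS libraries also differed widely among themselves, with replicates 2 and 3 at the ends (chi-square per degree of freedom 283 between them, and 84.9 and 67.0 from replicate 1). Reads outside annotated genes also moved with the group, at 14.7% to 15.5% with siNT and 18.4% to 20.8% with siMESH1-CDS, while they were at 10.0% to 12.2% in experiment 2. Values after a correction for GC content are therefore given beside the siMESH1-CDS values of the 10 genes. For the named replication genes outside the 10 they are given at least where the correction changed the call. The part of GC content in the changes was otherwise not tested.

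All 9 kidney and renal carcinoma markers (PAX8, PAX2, VIM, KRT8, KRT18, CDH6, CA9, EGLN3, NDUFA4L2) had reads in all 12 libraries. The lowest levels by library size were 0.0661 CPM for NDUFA4L2 and 0.242 CPM for KRT18. With siMESH1-CDS edgeR called 6 of the 9 lower and 2 higher, and 3 lower and 5 higher after GC correction. With siMESH1-7002 it called 4 lower and 2 higher. Over all genes tested, 37.2% were lower and 36.9% higher with siMESH1-CDS, and 26.7% and 26.6% with siMESH1-7002. Of 13 markers of blood, endothelium, hepatocytes and fibroblasts, 11 never exceeded 0.727 CPM by library size, and CD3E and PECAM1 were at 0 in every library. The summed level of the 3 blood markers, nearly all of it CD68, was 50.1 to 67.6 CPM with siNT and 0.926 to 7.12 CPM with siMESH1-CDS, and 105 to 107 CPM with siNT and 136 to 145 CPM with siMESH1-7002. The 3 hepatocyte markers, mostly SERPINA1, summed to 7.39 to 8.34 and 0.794 to 1.22 CPM in experiment 1 and to 5.02 to 5.93 and 3.90 to 4.69 CPM in experiment 2.

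All 10 genes were lower with each siRNA. The edgeR quasi-likelihood test called 10 of 10 lower with siMESH1-CDS, where 37.2% of the 13395 tested genes were called lower and 36.9% higher. It called 10 of 10 lower with siMESH1-7002, against 26.7% of 13568 genes called lower and 26.6% higher. For all 10 genes and both siRNAs, every siMESH1 library lay below every siNT library, which held for 42.5% of all genes tested with siMESH1-CDS and 29.9% with siMESH1-7002. The median log2 fold change of the 10 was -2.64 with siMESH1-CDS and -1.52 with siMESH1-7002, beside -0.05 and 0.01 over all genes tested. After GC correction all 10 were still called lower with siMESH1-CDS, against 26.6% of all genes (3563 lower and 5524 higher), and their median was -1.95, beside 0.18 over all genes. Without siMESH1-CDS replicate 2 or replicate 3 all 10 were called lower as well, with medians of -2.49 and -2.85. Without siMESH1-CDS replicate 1, or any 1 of its siNT libraries, 9 of the 10 were called lower and PCNA was not. With 3 libraries against 3, the exact permutation test on a single gene cannot give a two-sided p below 0.1, and it gave 0.1 for each of the 20 comparisons.

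**Figure D1:**
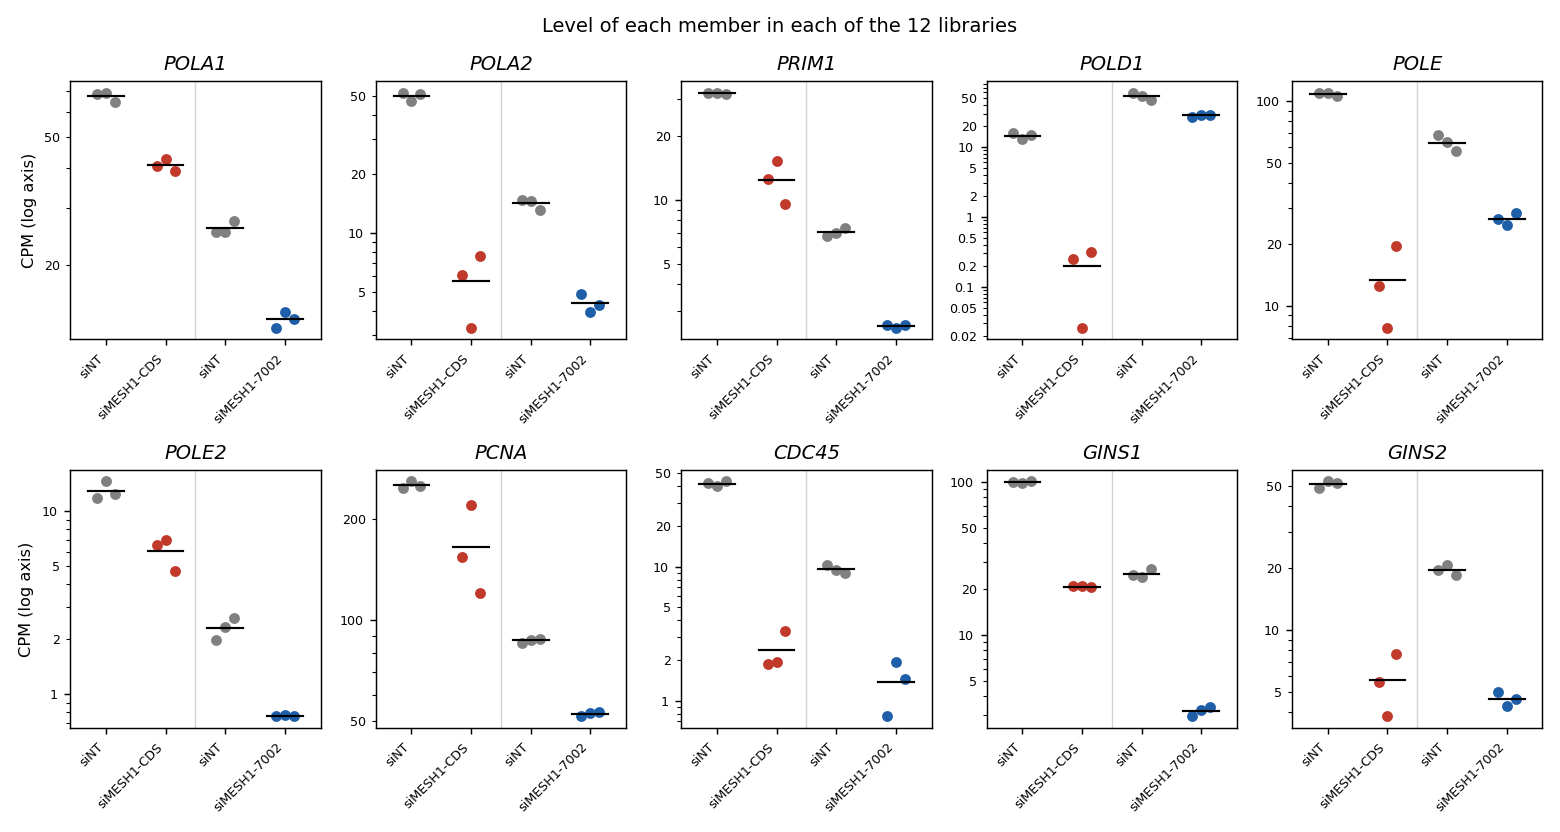
TMM-scaled CPM (log axis) of each of the 10 genes in the 12 libraries. Points are libraries, grey for siNT, red for siMESH1-CDS and blue for siMESH1-7002, black bars are means of 3, and the vertical line separates the 2 experiments. In every panel and both experiments the 3 siMESH1 points lie below the 3 siNT points, with POLD1 falling furthest in experiment 1.

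CDC45 and the GINS subunits, which turn the MCM ring into an active helicase, were the genes of the 10 that fell the most with siMESH1-7002. CDC45 was at 41.7, 39.6 and 43.0 CPM with siNT and at 1.87, 1.95 and 3.31 CPM with siMESH1-CDS. In experiment 2 it was at 10.3, 9.44 and 8.94 CPM with siNT and at 0.763, 1.93 and 1.45 CPM with siMESH1-7002. Thus 5.73% and 14.4% of the siNT mean remained, and the groups were far apart in both experiments. The log2 fold change was -4.12 ± 0.28 (adjusted p = 0.000254) with siMESH1-CDS, -3.50 ± 0.16 after GC correction, and -2.78 ± 0.18 (adjusted p = 1.22e-09) with siMESH1-7002. With siMESH1-7002 only 0.0884% of the tested genes had a lower log2 fold change than CDC45.

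GINS1 fell evenly across libraries. Its siNT level was 99.7, 98.3 and 100.6 CPM in experiment 1, against 20.9, 20.8 and 20.5 CPM with siMESH1-CDS. In experiment 2 it was at 24.6, 23.9 and 27.0 CPM with siNT and at 2.95, 3.24 and 3.40 CPM with siMESH1-7002. The 3 siMESH1-CDS libraries of GINS1 nearly coincided (20.7 ± 0.2 CPM, SD, n = 3), replicates 2 and 3 included. The log2 fold change of GINS1 was -2.26 ± 0.09 with siMESH1-CDS (adjusted p = 0.000168), -2.93 ± 0.11 after GC correction, and -2.97 ± 0.09 with siMESH1-7002 (adjusted p = 2.83e-13). It was the gene of the 10 that fell the most with siMESH1-7002, and 0.0516% of all tested genes fell further. GINS1 was also the only gene of the 10 whose 3′UTR held a match to either siRNA seed, and it matched each of them. A direct effect of the seeds on GINS1 was not tested.

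GINS2, another subunit of the same complex, had siNT levels of 49.0, 52.6 and 51.5 CPM in experiment 1 and 5.63, 3.82 and 7.68 CPM with siMESH1-CDS. In experiment 2 it had 19.5, 20.7 and 18.6 CPM with siNT and 5.03, 4.29 and 4.62 CPM with siMESH1-7002. The groups were well separated both times, and the siMESH1-CDS libraries varied more among themselves than those of siMESH1-7002. GINS2 changed by -3.16 ± 0.28 (adjusted p = 0.000395), by -2.96 ± 0.17 after GC correction, and by -2.08 ± 0.09 with siMESH1-7002 (adjusted p = 8.15e-12).

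Of the 3 priming genes among the 10, POLA1, the catalytic subunit of polymerase alpha, fell least with each siRNA. POLA1 was at 68.3, 68.9 and 64.5 CPM with siNT and at 40.6, 42.7 and 39.3 CPM with siMESH1-CDS, and at 25.3, 25.3 and 27.5 CPM with siNT and 12.7, 14.3 and 13.5 CPM with siMESH1-7002. About the same share remained in both experiments, 60.7% and 51.8% of the siNT mean. Its log2 fold change was -0.72 ± 0.09 with siMESH1-CDS (adjusted p = 0.00113), -1.27 ± 0.07 after GC correction and -0.95 ± 0.07 with siMESH1-7002 (adjusted p = 1.19e-08).

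POLA2, the accessory subunit that tethers polymerase alpha in the complex, fell further. It was at 51.8, 47.2 and 51.1 CPM with siNT and at 6.07, 3.28 and 7.62 CPM with siMESH1-CDS. In experiment 2 it was at 14.7, 14.5 and 13.1 CPM with siNT and at 4.85, 3.95 and 4.29 CPM with siMESH1-7002. Replicate 2 of siMESH1-CDS was the lowest and replicate 3 the highest of that group, and no library overlapped siNT. The log2 fold change of -3.15 ± 0.33 with siMESH1-CDS (adjusted p = 0.000591) shrank to -1.77 ± 0.09 after GC correction, and it was -1.69 ± 0.10 with siMESH1-7002 (adjusted p = 3.82e-10).

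PRIM1, the primase subunit that synthesizes the RNA primer, moved in the other direction under the GC correction. It was at 32.0, 31.8 and 31.6 CPM with siNT and at 12.6, 15.3 and 9.58 CPM with siMESH1-CDS. It was at 6.78, 6.95 and 7.34 CPM with siNT and at 2.57, 2.50 and 2.57 CPM with siMESH1-7002. Here replicate 2 of siMESH1-CDS was the highest of its group and replicate 3 the lowest, and PRIM1 has the lowest transcript GC content of the 10 genes (40.1%). PRIM1 changed by -1.35 ± 0.20 with siMESH1-CDS (adjusted p = 0.00169), by -2.12 ± 0.10 after GC correction, and by -1.46 ± 0.11 with siMESH1-7002 (adjusted p = 1.32e-08), all on the log2 scale.

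POLD1, the catalytic subunit of polymerase delta, differed most between the siRNAs. It was at 15.6, 12.8 and 14.7 CPM with siNT and at 0.253, 0.0260 and 0.316 CPM with siMESH1-CDS, which correspond to 8, 1 and 11 reads. In experiment 2 it was at 59.4, 53.8 and 47.4 CPM with siNT and at 27.01, 28.65 and 28.98 CPM with siMESH1-7002. POLD1 was thus nearly lost with siMESH1-CDS (1.38% of the siNT mean), while 52.7% remained with siMESH1-7002. Its transcript has the highest GC content of the 10 genes (65.0%). The log2 fold change was -6.18 ± 0.67 with siMESH1-CDS (adjusted p = 0.000670), -2.45 ± 0.33 after GC correction and -0.92 ± 0.07 with siMESH1-7002 (adjusted p = 2.32e-08).

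POLE, the catalytic subunit of polymerase epsilon, was at 109.9, 109.6 and 105.8 CPM with siNT and at 12.5, 7.83 and 19.6 CPM with siMESH1-CDS. It was at 68.0, 63.1 and 57.2 CPM with siNT and at 26.6, 24.8 and 28.5 CPM with siMESH1-7002. The separation was wide in both, although the siMESH1-CDS libraries varied more than those of siMESH1-7002. The log2 fold change of -3.02 ± 0.34 (adjusted p = 0.000733) became -1.11 ± 0.11 after GC correction, and it was -1.24 ± 0.07 with siMESH1-7002 (adjusted p = 2.92e-10).

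POLE2, the second subunit of the same polymerase, had the lowest mean CPM of the 10 genes over the siNT libraries of each experiment. It was at 11.9, 14.5 and 12.4 CPM with siNT and at 6.58, 6.97 and 4.72 CPM with siMESH1-CDS, and at 1.99, 2.33 and 2.62 CPM with siNT and 0.763, 0.777 and 0.759 CPM with siMESH1-7002. The 3 libraries of siMESH1-7002 held 22, 23 and 23 reads, so that counting error limits this value. The log2 fold change was -1.09 ± 0.22 with siMESH1-CDS (adjusted p = 0.00532), -1.58 ± 0.16 after GC correction and -1.58 ± 0.20 with siMESH1-7002 (adjusted p = 3.70e-06).

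PCNA, the clamp and the most abundant transcript of the 10, changed least with both siRNAs. It was at 248, 259 and 252 CPM with siNT and at 154, 220 and 121 CPM with siMESH1-CDS. In experiment 2 it was at 85.7, 87.4 and 88.0 CPM with siNT and at 51.7, 52.8 and 53.3 CPM with siMESH1-7002. The groups did not overlap, but the siMESH1-CDS libraries spread widely and replicate 2 came closest to siNT. On the log2 scale PCNA changed by -0.62 ± 0.22 with siMESH1-CDS (adjusted p = 0.0412), by -0.92 ± 0.19 after GC correction (adjusted p = 0.00641) and by -0.73 ± 0.05 with siMESH1-7002 (adjusted p = 2.45e-09). The call with siMESH1-CDS was lost without any 1 of the 3 siNT libraries or without siMESH1-CDS replicate 1 (adjusted p = 0.0888 to 0.124). Without siMESH1-CDS replicate 2 the change was -0.86 (adjusted p = 0.00104).

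**Figure D2:**
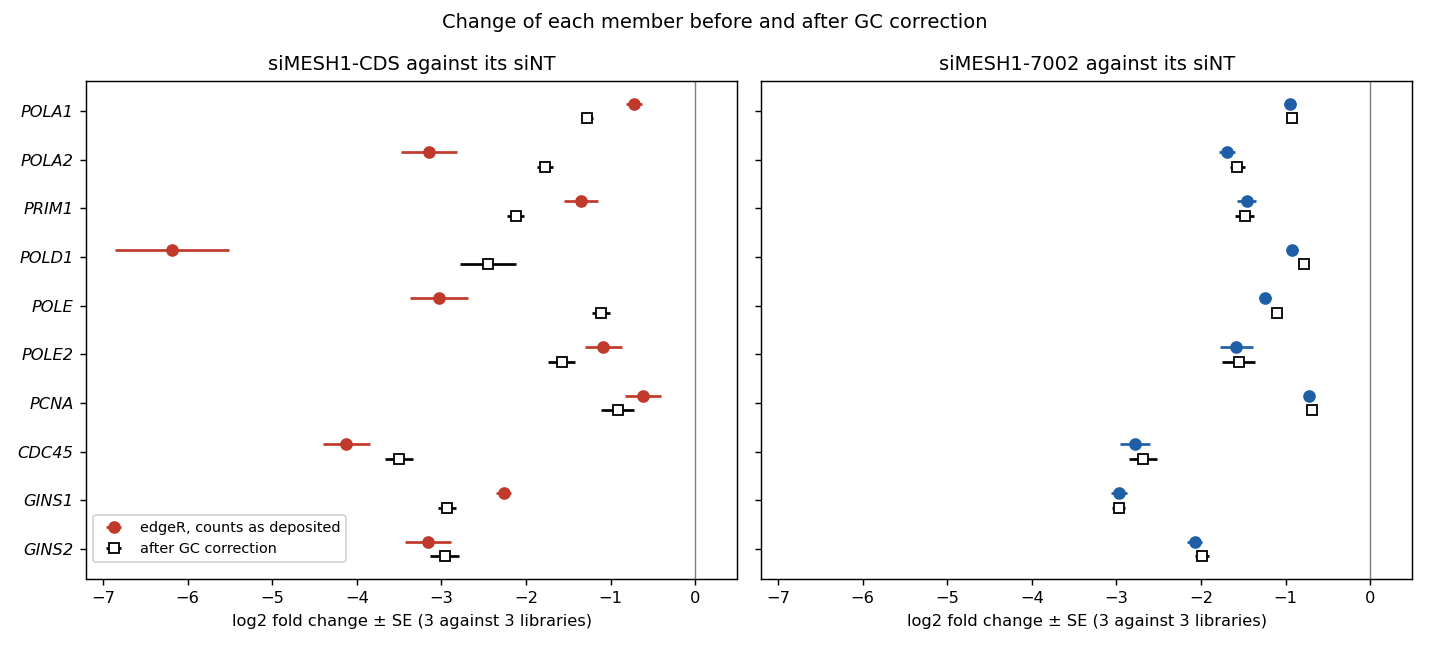
Log2 fold change of each gene against the siNT libraries of its experiment, with SE derived from the F statistic of the edgeR fit of 3 against 3 libraries. Filled circles are the counts as deposited and open squares are after GC correction, which moves POLD1 from -6.18 to -2.45 and PRIM1 from -1.35 to -2.12 with siMESH1-CDS and no gene by more than 0.147 with siMESH1-7002.

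The spread among the 10 genes followed transcript GC content with siMESH1-CDS. Across the 10 genes, which share libraries and are not independent replicates, Pearson's r between GC content and log2 fold change was -0.87 with siMESH1-CDS, -0.09 after GC correction and 0.22 with siMESH1-7002. The 5 genes with 49.1% GC or more (POLD1, POLE, POLA2, CDC45, GINS2) changed by -6.18 to -3.02 with siMESH1-CDS, and the 5 with 45.3% or less (PCNA, POLE2, POLA1, GINS1, PRIM1) by -2.26 to -0.62. Each gene was nevertheless lower than the median of its own GC class, by -1.26 for PCNA to -3.35 for CDC45 with siMESH1-CDS and by -0.76 for PCNA to -3.04 for GINS1 with siMESH1-7002. Within its class, the share of genes with a still lower log2 fold change was lowest for GINS1 (0.697%) and highest for POLE (16.6%) with siMESH1-CDS. With siMESH1-7002 it was between 0% for CDC45 and 6.64% for PCNA.

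**Figure D3:**
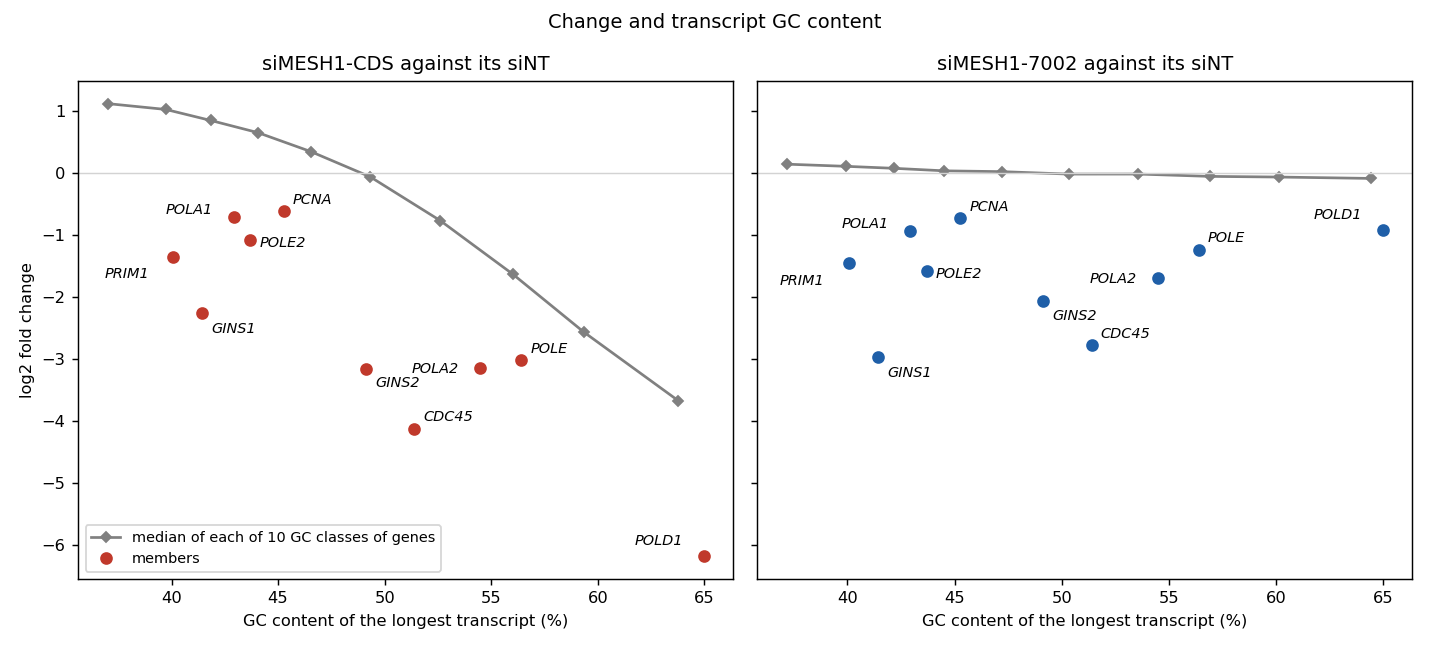
Log2 fold change against the GC content (%) of the longest transcript, for the 10 genes (coloured points) and as medians of 10 equal classes of all tested genes (grey diamonds, drawn at the median GC content of the class). The grey line drops from 1.11 to -3.68 with siMESH1-CDS and is nearly flat with siMESH1-7002, and all 10 genes lie below it in both panels.

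The change of 6 of the 10 genes differed between the siRNAs when tested in a single fit of all 12 libraries. Of 14154 genes 69.7% differed, so the 10 genes did not differ more often than genes in general. This fit scales the 12 libraries together, and its differences lie 0.15 (median over the 10 genes) below the subtraction of the 2 separate changes. The change with siMESH1-CDS was the more negative for POLD1 (difference -5.42 ± 0.45), POLE (-1.94 ± 0.36), POLA2 (-1.60 ± 0.34), CDC45 (-1.49 ± 0.39) and GINS2 (-1.23 ± 0.28), and the less negative for GINS1 (0.56 ± 0.12), with adjusted p between 5.78e-06 and 0.00651. For POLA1, POLE2, PRIM1 and PCNA no difference was called, with values of 0.08 ± 0.11, 0.35 ± 0.25, -0.04 ± 0.21 and -0.04 ± 0.23. After GC correction 61.5% of all genes and 5 of the 10 differed, of which 3 (POLD1, CDC45 and GINS2) had differed before. POLD1 was then at -1.91 ± 0.25, GINS2 at -0.99 ± 0.19, CDC45 at -0.81 ± 0.31, PRIM1 at -0.71 ± 0.10 and POLA1 at -0.41 ± 0.09. The mean absolute gap between the separate changes of the 10 genes was 1.26 before GC correction and 0.494 after it. The siRNA and the experiment cannot be told apart here, since each siRNA was used in 1 experiment only.

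Subunits of 1 complex were compared with each other within libraries. For each library the log2 ratio of the reads of a pair of subunits was taken, with 1 read added to each count. With 3 libraries against 3 the exact two-sided permutation test cannot pass 0.05, and over the 8 ratio tests the smallest adjusted p was 0.114. The ratio of PRIM1 to POLA1 was -1.10, -1.11 and -1.03 with siNT and -1.69, -1.48 and -2.03 with siMESH1-CDS, and it was -1.90, -1.86 and -1.90 with siNT and -2.29, -2.50 and -2.38 with siMESH1-7002. It was lower in 3 of 3 libraries with each siRNA, by -0.66 and -0.50, and by -0.85 and -0.55 after GC correction. The ratio of POLA2 to POLA1 was lower as well, by -2.50 with siMESH1-CDS (-0.49 after GC correction) and by -0.74 with siMESH1-7002 (-0.64 after GC correction). These groups did not overlap with either siRNA (exact p = 0.1 each). In each of the 6 siMESH1 libraries the reads of both partners were thus fewer, relative to POLA1, than in any siNT library of the same experiment. The share of all gene pairs whose ratios separate in this way was not counted.

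The other pairs depended on the siRNA or on GC correction. GINS2 to GINS1 stood at -0.96 ± 0.06 with siNT and -1.91 ± 0.51 with siMESH1-CDS, and at -0.36 ± 0.17 with siNT and 0.53 ± 0.20 with siMESH1-7002 (SD, n = 3). The sign was therefore opposite in the 2 experiments, and after GC correction the difference was -0.043, with overlapping groups, for siMESH1-CDS and 0.98 for siMESH1-7002. The 3′UTR of GINS1 held a match to the seed of each siRNA, and the part of these matches in the ratio was not tested. POLE2 to POLE was higher by 2.02 with siMESH1-CDS, which turned to -0.47 after GC correction. With siMESH1-7002 it differed by -0.31, the groups overlapped, and the exact p was 0.3. After GC correction it differed by -0.42 with siMESH1-7002, and the corrected groups did not overlap with either siRNA. POLE2 and POLE differ in transcript GC content (43.7% and 56.4%).

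**Figure D4:**
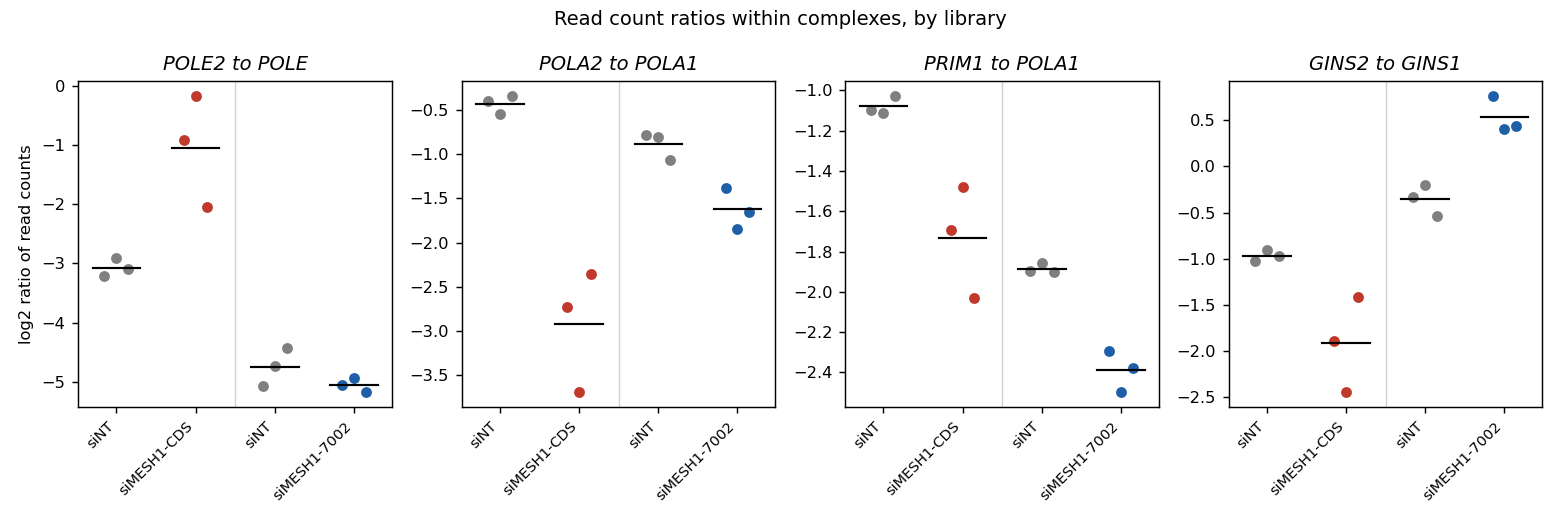
Log2 ratio of read counts of 2 subunits in each of the 12 libraries, with 1 read added to each count. Points are libraries, black bars are means of 3, and the y axes differ between panels. PRIM1 to POLA1 and POLA2 to POLA1 are lower with both siRNAs, whereas GINS2 to GINS1 is lower with siMESH1-CDS and higher with siMESH1-7002.

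Levels were also compared between genes as CPM per kilobase of the longest transcript in the siNT libraries. PCNA was the most abundant in both experiments, at 186 ± 4 CPM per kilobase in experiment 1 and 64.0 ± 0.9 in experiment 2. In experiment 1 the order was GINS1 (30.6 ± 0.3), PRIM1 (22.8 ± 0.1), CDC45 (19.8 ± 0.8), GINS2 (19.1 ± 0.7), POLE (13.8 ± 0.3), POLA2 (13.4 ± 0.7), POLA1 (12.3 ± 0.4), POLE2 (7.22 ± 0.78) and POLD1 (4.08 ± 0.40 CPM per kilobase). Of neighbours in this order, CDC45 and GINS2 overlapped, as did POLE and POLA2. In experiment 2 POLD1 came second (15.2 ± 1.7), before POLE, GINS1 and GINS2 (8.01 ± 0.69, 7.74 ± 0.50 and 7.34 ± 0.40), whose libraries overlapped from one to the next. PRIM1, POLA1 and CDC45 followed at 5.04 ± 0.21, 4.75 ± 0.23 and 4.57 ± 0.32, likewise overlapping, then POLA2 (3.77 ± 0.23) and POLE2 (1.29 ± 0.18). The place of POLD1, last in experiment 1 and second in experiment 2, was the largest shift of the order. These levels were not corrected for GC content, and POLD1 has the highest transcript GC content of the genes compared (65.0%). The part of GC content in the order of each experiment, and in the shift of POLD1, was not tested.

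The remaining genes of the replication machinery were described from lists of 44 genes, all of which were tested. Of the 44, 37 were called lower and 0 higher with siMESH1-CDS (41 lower after GC correction), and 39 lower and 2 higher with siMESH1-7002. The shares of all tested genes were 37.2% lower and 36.9% higher with siMESH1-CDS (26.6% lower after GC correction). With siMESH1-7002 these shares were 26.7% and 26.6%. The list counts below stand beside the same shares. At an unadjusted p under 0.05 edgeR likewise had 0 of the 44 higher with siMESH1-CDS, and DESeq2 called 0. The median log2 fold change of the 44 was -1.90 with siMESH1-CDS and -0.99 with siMESH1-7002, beside -0.05 and 0.01 over all genes tested. Values below are log2 fold changes ± SE, with siMESH1-CDS first and siMESH1-7002 second.

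The remaining CMG subunits, MCM2 to MCM7 with GINS3 and GINS4, were lower in 8 of 8 with each siRNA (medians -2.97 and -1.57). GINS4 had the lowest value with siMESH1-7002 (-2.34 ± 0.27 with siMESH1-CDS and -2.29 ± 0.10 with siMESH1-7002). MCM7 had the highest with siMESH1-7002 (-3.86 ± 0.54 with siMESH1-CDS, -1.74 after GC correction, and -0.45 ± 0.05 with siMESH1-7002). Of 8 genes that assemble or activate the helicase, 6 were lower with siMESH1-CDS and 8 with siMESH1-7002. MCM10, which helps to activate CMG, was at -4.18 ± 0.15 and -2.65 ± 0.12 with siMESH1-CDS and siMESH1-7002. DBF4, the activator of the CDC7 kinase, was at 0.40 ± 0.23 and not called with siMESH1-CDS, and at -0.41 ± 0.08 with siMESH1-7002. After GC correction DBF4 was at -0.38 and called lower with siMESH1-CDS (edgeR adjusted p = 0.0276).

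The further subunits of the replicative polymerases varied in direction. PRIM2, the large primase subunit, was at -0.80 ± 0.15 and -0.84 ± 0.12. POLD2 was at -3.96 ± 0.94 (-1.66 after GC correction) and -0.39 ± 0.05. POLD3 was at -0.71 ± 0.09 and -0.62 ± 0.07, and both were lower with each siRNA. POLD4, the smallest delta subunit, was lower with siMESH1-CDS (-3.13 ± 1.02, adjusted p = 0.0314) and not called after GC correction (-1.36, adjusted p = 0.0643), but higher with siMESH1-7002 (0.32 ± 0.05, adjusted p = 7.61e-05). Of the histone-fold subunits of polymerase epsilon, POLE3 was at -0.24 ± 0.10 (not called) and -0.22 ± 0.06, and POLE4 at -1.06 ± 0.33 and -0.01 ± 0.13 (not called). After GC correction POLE3 was called lower with siMESH1-CDS too (-0.39, edgeR adjusted p = 0.00664). With siMESH1-7002, POLD4 was thus higher and POLE4 near 0 while their catalytic partners POLD1 and POLE fell.

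All 9 genes of the clamp loaders and the unloader ATAD5 were lower with siMESH1-CDS and 8 of 9 with siMESH1-7002. DSCC1 was lowest with siMESH1-7002 (-1.80 ± 0.20 and -1.97 ± 0.19), and RFC1, the large clamp loader subunit, was highest (-0.29 ± 0.10, and -0.04 ± 0.05, not called). Of the RPA genes, whose product coats single-stranded DNA, RPA1 was lower with each siRNA (-0.69 ± 0.18 and -0.38 ± 0.05). RPA2 was at -0.14 ± 0.13 (not called) and rose with siMESH1-7002 (0.21 ± 0.08, adjusted p = 0.0271), and RPA3 was at -0.19 ± 0.16 (not called) and -0.37 ± 0.07. After GC correction RPA3 was called lower with siMESH1-CDS (-0.40, edgeR adjusted p = 0.0367). Among Okazaki fragment genes 5 of 6 were lower with each siRNA, with the flap nuclease FEN1 at -3.47 ± 0.15 and -1.56 ± 0.06 and RNASEH2C at -2.73 ± 0.71 and -0.15 ± 0.07 (not called). RNASEH2C was not called with siMESH1-CDS after GC correction (-0.68, edgeR adjusted p = 0.0824). Of the fork protection genes 3 of 4 and 4 of 4 were lower, with CLSPN at -3.11 ± 0.10 and -2.34 ± 0.09 and TIPIN at 0.07 ± 0.24 (not called) and -0.58 ± 0.13. After GC correction TIPIN was at -0.64 and called lower with siMESH1-CDS (edgeR adjusted p = 0.00704).

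DNA polymerases outside the replication fork, used in repair, lesion bypass and mitochondria, moved in both directions. Of 14 such genes 5 were lower and 7 higher with siMESH1-CDS, and 3 lower and 8 higher with siMESH1-7002, with medians of 0.58 and 0.21. Of all genes tested 37.2% were lower and 36.9% higher with siMESH1-CDS, and 26.7% and 26.6% with siMESH1-7002. After GC correction 4 of the 14 were lower and 6 higher with siMESH1-CDS, beside 3563 lower and 5524 higher of all 13395 genes. Higher with both siRNAs were 6 genes, named after their values were seen: the repair polymerase POLB, the mitochondrial subunit POLG2, the bypass polymerases POLH, POLI and POLK, and REV3L, the catalytic subunit of polymerase zeta. Lower with both siRNAs were 2 of the 14, POLG and POLQ. POLG, the catalytic mitochondrial polymerase, was at -2.42 ± 0.29 with siMESH1-CDS and -0.43 ± 0.06 with siMESH1-7002. After GC correction it was at 0.45 and not called with siMESH1-CDS (edgeR adjusted p = 0.183), and at -0.30 and still called lower with siMESH1-7002. The shares of all genes that were higher, or lower, with both siRNAs were not counted. REV3L was highest with siMESH1-7002, at 0.82 ± 0.07, and at 1.02 ± 0.18 with siMESH1-CDS (0.25 after GC correction). POLH was at 0.68 ± 0.05 with siMESH1-7002 and 0.72 ± 0.15 with siMESH1-CDS (0.66 after GC correction). POLQ, of the end-joining pathway, was lowest with siMESH1-7002 among the 14 genes, at -2.17 ± 0.12, and it was at -1.16 ± 0.13 with siMESH1-CDS.

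**Figure D5:**
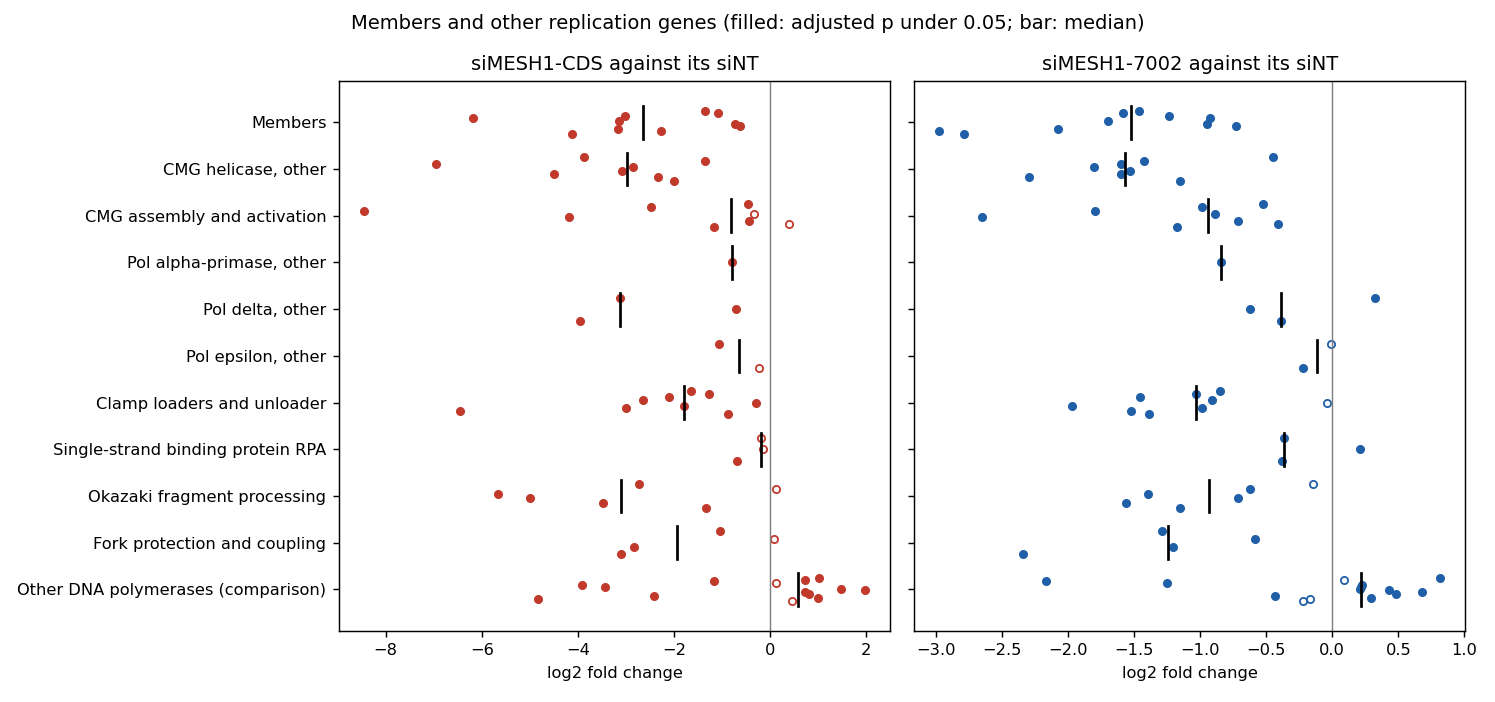
Log2 fold change of the 10 genes (Members) and of the lists of other replication genes, each point a gene, filled where the edgeR adjusted p was under 0.05, with a black bar at the list's median. The x axes differ between the panels. The bars of the replication lists lie below 0 in both panels and the bar of the other DNA polymerases lies above 0.

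The genes whose levels followed the 10 most closely over the libraries were also found. Of 9503 other genes with a mean of at least 5 CPM in each experiment, 752 (7.91%) had a Pearson correlation above 0.9 with the mean pattern of the 10 genes over the 6 libraries of each experiment. The 5 closest were MCM4 (0.9985 for the smaller of the 2 correlations), NASP (0.9982), SHCBP1 (0.9980), TPX2 (0.9977) and DTL (0.9976). Correlations over 6 libraries in 2 groups mostly reflect the group difference. MCM4 is a subunit of the MCM ring and NASP a histone chaperone, and their log2 fold changes were -2.86 and -1.80 for MCM4 and -0.79 and -0.83 for NASP with siMESH1-CDS and siMESH1-7002. TPX2, a spindle assembly factor, changed by -0.91 and -1.74, DTL, a substrate receptor that acts with PCNA, by -2.89 and -2.30, and SHCBP1 by -3.93 and -2.39.

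Promoters were searched because the genes moved together. The RefSeq table (GRCh38.p14, 250 bases before to 50 after each gene start) held all 10 genes, with more than 1 window for POLD1, PCNA and CDC45. Of the E2F-like words, TTCCCGC was searched for on both strands, as was TTGGCGC. The other two words of this kind were TTCGCGC and, likewise on both strands, TTGCCGC. At least 1 was present for 8 of the 10 genes, all but POLD1 and CDC45, against 24.5% of the 9999 tested genes with a window and 12.97% of all 35116 windows. The nearest E2F-like word to the gene start is printed for each of the 8 genes, along the strand of the gene, with the word in capitals (a word on the opposite strand is read as its reverse complement).
POLA1, chrX:24693923-24693952, plus strand: ttttgggctggTTGGCGCggaatcgggaga
POLA2, chr11:65261899-65261928, plus strand: tggctcccggtTTCGCGCatgcgtgcactg
PRIM1, chr12:56752329-56752358, minus strand: cggccgtgctgTTCCCGCcaattcctgtgg
POLE, chr12:132687342-132687371, minus strand: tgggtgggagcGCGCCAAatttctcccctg
POLE2, chr14:49688201-49688230, minus strand: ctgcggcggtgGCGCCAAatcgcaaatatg
PCNA, chr20:5126663-5126692, minus strand: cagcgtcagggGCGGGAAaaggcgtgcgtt
GINS1, chr20:25407667-25407696, plus strand: agctttgttcgGCGCCAAagcgcggagcgg
GINS2, chr16:85688967-85688996, minus strand: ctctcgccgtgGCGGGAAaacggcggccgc
These words begin between 59 bases before (PCNA) and 16 bases after (POLA1) the annotated start. The CHR-like words TTTGAA and TTCGAA were in 0 of the 10 genes' windows and in 15.6% of the tested genes', and the CCAAT word was in 7 of 10 genes (not POLA2, POLD1 or POLE2) and in 43.2% of the tested genes. In PRIM1 and POLE a CCAAT word overlaps an E2F-like word. CDC45 had CCAAT words only, of which the one nearest to an annotated start is shown.
CDC45, chr22:19479806-19479835, plus strand: ctccaatgtggcCCAATcagaaagaaagga
A match is a description of these letters. POLD1, without an E2F-like or CCAAT word in its windows, and CDC45, without an E2F-like one, were among the genes that fell with both siRNAs.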

How the data were processed

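RNA-seq counts of 12 RCC4 libraries were analysed. Per the labels, poly(A) RNA was prepared with a stranded kit, and the submitters' processing notes name FastQC, HISAT2, HTSeq, DESeq2 and the build hg19. The deposited files hold whole-number read counts per gene, not normalized. Rows that name no gene, 38.9% to 49.3% of reads, were left out. The deposited DESeq2 tables of comparisons were not used.

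Groups follow the transfected siRNA and the experiment that the labels give. Counts were tested with edgeR 4.0.16 (filterByExpr, TMM, quasi-likelihood F test) in R 4.3.3 within each experiment, with Benjamini-Hochberg adjustment over all genes and a threshold of 0.05. The difference between siRNAs was tested in 1 model of 4 groups. The SE of a log2 fold change was derived from the test, as its absolute value divided by the square root of the F statistic. For the GC correction, log2 CPM with a prior count of 1 were smoothed against the GC content of transcripts by lowess (span 0.3) in each library, and the smooth entered the fit as an offset. GC content, lengths and 3′UTRs come from GENCODE 29 (GRCh38), longest transcript, matched for 21257 symbols by name and 1083 by an older symbol, with 1370 unmatched. Promoters are from RefSeq. Replicates are called biological in the labels without further detail, so p-values measure the spread between these samples. At these depths 1 CPM rests on about 25 to 49 reads.

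The 10 genes and all lists were chosen with earlier results of these data known. All 10 are named. Of the cell type markers chosen, 1 gene is not reported here. Of each list of other replication genes, the lowest and highest with siMESH1-7002 were named (all of lists of up to 3), plus any called higher. The 5 genes most like the 10 were those with the highest smaller correlation.

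Exact permutation tests used scipy 1.17.1. The edgeR fit of each experiment, without GC correction, was first tested on simulated counts. The simulated counts had less spread than experiment 1 and no GC trend, so this check does not cover the siMESH1-CDS calls. The GC correction, the fit of all 12 libraries and DESeq2 were not tested in this way. Alternatives were DESeq2 1.42.0, other scalings, filters and thresholds, a replicate block, GC and length corrections, lane terms and leaving out each library.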

Additional observations from a re-analysis of the deposited data

Results flagged for a closer look

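The change of 6 genes differed between siMESH1-CDS and siMESH1-7002 in the fit of all 12 libraries (edgeR, difference of the log2 fold changes, siMESH1-CDS minus siMESH1-7002). POLD1 was at -5.42 (adjusted p = 5.78e-06) and, after GC correction, at -1.91 (adjusted p = 7.54e-05). POLE was at -1.94 (adjusted p = 0.000826) and at 0.05 after GC correction (adjusted p = 0.751). POLA2 was at -1.60 (adjusted p = 0.00181) and at -0.16 after it (adjusted p = 0.263). CDC45 was at -1.49 (adjusted p = 0.00651) and at -0.81 after it (adjusted p = 0.0420). GINS2 was at -1.23 (adjusted p = 0.00295) and at -0.99 after it (adjusted p = 0.000916). GINS1 was at 0.56 (adjusted p = 0.00185) and at -0.02 after it (adjusted p = 0.892). All 6 genes fell in 3 of 3 libraries with each siRNA, so the difference is one of size. The share of all genes that differed was 69.7%.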

How the results depend on the processing

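All 10 genes were called lower with siMESH1-7002 under all 12 alternatives and without any 1 library, with medians between -1.58 and -1.45. With siMESH1-CDS 9 or 10 were called lower, PCNA being the one lost (adjusted p under 0.01, or without 4 of the 6 libraries in turn). POLD1 has no value with at least 10 counts in every library. The median of the 10 with siMESH1-CDS (-2.64) was -2.90 with library size scaling, which moves the median of all genes by -0.26. It was -2.45 with at least 10 counts in every library, -2.80 with all 12 libraries in 1 model and -2.53 with a lane covariate. In experiment 1, lane 5 held only siNT and lane 7 only siMESH1-CDS. Within lane 4, siMESH1-CDS replicate 3 alone against siNT replicate 1 alone gave -2.38. Within lane 6, siMESH1-CDS replicate 1 alone against siNT replicate 3 alone gave -2.67. The median was -1.95 with GC correction, -1.93 with GC and length correction, and -2.85 to -2.49 without 1 library. The other DNA polymerases had 6 or 7 genes higher with siMESH1-CDS and 8 with siMESH1-7002 under the 3 scalings.

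Of the other replication genes, the 2 called higher with siMESH1-7002 became 1 with DESeq2 and at an adjusted p under 0.01, and 0 when a minimum fold change was required and with all 12 libraries in 1 model. Without 1 library those called higher were 1 or 2, and 0 or 1 with siMESH1-CDS. The 39 called lower with siMESH1-7002 became 33 with the minimum fold change and 29 with all 12 libraries in 1 model. Without 1 library they were 39 or 40. With siMESH1-CDS the 37 called lower became 29 at an adjusted p under 0.01, and 29 to 38 without 1 library. After GC correction the difference between siRNAs reversed to -0.41 for POLA1, to -0.078 for POLE2, to 0.052 for POLE and to -0.024 for GINS1. With siMESH1-CDS the ratio of POLE2 to POLE reversed to -0.47, and the ratios of POLA2 to POLA1 and GINS2 to GINS1 moved to -0.49 and -0.043. The cause of these shifts beyond the correction itself was not tested.

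Replicate numbers are shared between groups, but same-numbered libraries did not deviate together in every pair (r of deviations -0.09, 0.32 and 0.20 in experiment 1, and -0.09, 0.03 and -0.10 in experiment 2). With a replicate block, 10 genes were lower with each siRNA, the medians were -2.69 and -1.52, and 6 genes differed between siRNAs. With the block and GC correction together the siMESH1-CDS median was -1.95. Replicates of a group differed by more than sampling noise (chi-square per degree of freedom 3.82 to 283 in experiment 1 and 2.28 to 13.5 in experiment 2), so none was counted as a repeat. Depth limits POLD1 and HDDC3 with siMESH1-CDS, at 11 reads or fewer, and POLE2 with siMESH1-7002, at 22 or 23.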
